A study of Mus musculus with 10 samples.

Results

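The 10 genes described here are immediate early genes and their close relatives: Fos, Fosb, Fosl1, Fosl2, Jun, Junb and Jund of the AP-1 family, the zinc finger gene Egr1, and Ier2 and Ier3. They were chosen by name, and all 10 were present among the 52550 genes of the deposited table and passed the filter on low counts. The cells were MEFs (mouse embryonic fibroblasts), which grow out of dissociated C57BL/6 embryos at embryonic day 14, used at passage 3 and kept in a serum-containing medium with antibiotics. There were 5 male and 5 female libraries, with no treatment in either group, and sex was the only difference that the labels name. Whether the 5 libraries of each sex represent different embryos or culture dishes is not stated in the labels, which also hold no record of feeding, confluence or handling at harvest. The tests therefore reflect the spread among these particular libraries, and that spread may be technical.

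AP-1 is a dimer of basic leucine zipper proteins. Jun proteins pair with each other or with Fos proteins, while Fos proteins need a Jun partner, and the dimer binds short DNA sites in promoters and enhancers. In resting cells Fos, Fosb, Egr1 and Ier2 are transcribed at a low level. Serum, growth factors or stress switch them on within minutes through MAP kinases, the serum response factor with its Elk partners, and CREB, without need for new protein. Their transcripts are short-lived, so the level falls again soon. Jund, Fosl1 and Fosl2 belong to the same family but are expressed more steadily, and Fosl1 and Fosl2 are the Fos proteins of growing cells.

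In the mm10 coordinates of the table, the Fos genes lie apart from each other: Fos (ENSMUSG00000021250) at chr12:85473890-85477273, Fosb (ENSMUSG00000003545) at chr7:19302696-19310051, Fosl1 (ENSMUSG00000024912) at chr19:5447703-5455945 and Fosl2 (ENSMUSG00000029135) at chr5:32135801-32157842. The Jun genes are Jun (ENSMUSG00000052684) at chr4:95049034-95052222, Junb (ENSMUSG00000052837) at chr8:84974484-84978718 and Jund (ENSMUSG00000071076) at chr8:70698949-70700616, and Junb and Jund share chromosome 8 with Ier2 (ENSMUSG00000053560) at chr8:84661331-84662852. Ier3 (ENSMUSG00000003541) lies at chr17:35821684-35822923. Egr1 (ENSMUSG00000038418) lies on another chromosome than these 9, and its coordinates are not shown here. Jun, Jund and Ier2 are annotated with 1 exon, and the other 7 with introns.

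The promoters of 4 members are shown because these genes span the range of behaviour below: Fos and Fosb, which were rare, and Jun and Junb, which varied together. Each line gives the 250 bases before the RefSeq start (GRCm38.p6), with capitals for matches to TGACG, the core of the CREB site, to TGACATCA, the AP-1-like site known from the Jun promoter, and to TATAAA. They lie at chr12:85473640-85473889 (plus strand), chr7:19310046-19310295, chr4:95052223-95052472 and chr8:84978749-84978998 (minus strand for these 3).
Fos: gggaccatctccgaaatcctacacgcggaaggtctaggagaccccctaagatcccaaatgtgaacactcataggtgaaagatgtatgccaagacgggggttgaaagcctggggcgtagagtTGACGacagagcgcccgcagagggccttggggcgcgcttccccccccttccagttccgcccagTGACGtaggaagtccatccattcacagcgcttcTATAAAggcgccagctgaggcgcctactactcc
Fosb: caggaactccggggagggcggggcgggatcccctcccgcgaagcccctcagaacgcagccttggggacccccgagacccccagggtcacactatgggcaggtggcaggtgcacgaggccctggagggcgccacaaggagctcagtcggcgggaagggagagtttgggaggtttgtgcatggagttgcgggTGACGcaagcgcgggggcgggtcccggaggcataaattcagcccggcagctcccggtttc
Jun: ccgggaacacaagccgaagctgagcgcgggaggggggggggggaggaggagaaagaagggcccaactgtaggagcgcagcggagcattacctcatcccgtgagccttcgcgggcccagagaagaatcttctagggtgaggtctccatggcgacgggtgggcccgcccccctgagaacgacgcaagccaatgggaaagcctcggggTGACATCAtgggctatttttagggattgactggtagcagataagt
Junb: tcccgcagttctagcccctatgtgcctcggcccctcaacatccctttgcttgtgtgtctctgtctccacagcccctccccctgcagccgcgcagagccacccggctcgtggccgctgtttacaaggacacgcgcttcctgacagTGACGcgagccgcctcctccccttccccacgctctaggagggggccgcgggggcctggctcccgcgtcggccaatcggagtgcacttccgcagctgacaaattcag
Both strands were searched, and TGACG lies within TGACGTCA, so those matches can overlap. Of the members, 7 had a window in the RefSeq set, and 3 of these (Fos, Fosb and Junb) held TGACG, which 17.8% of all 32851 windows of that length hold. Fos carried it at bases -129 to -125 and -66 to -62 from the start, Fosb at -60 to -56 and Junb at -106 to -102. TGACATCA was found in Jun alone among the 7, at -45 to -38, and in 2.93% of all windows. Fos alone held TATAAA, at -33 to -28, against 12.4% of all windows. None of the 7 held TGANTCA, the full CREB site TGACGTCA or a CArG box, the serum response factor motif, in these 250 bases, where 6.75%, 1.55% and 1.47% of all windows do. These matches describe the windows only. Only the windows of Fos and Jun adjoin the gene exactly as the deposited table has it. That of Junb starts at 84978749 and leaves a short gap to the gene, which ends at 84978718. The windows of Fosb (from 19310046, gene to 19310051) and Ier3 (to 35821712, gene from 35821684) reach into the gene. That of Jund, chr8:70697489-70697738, ends well before the gene's first base at 70698949. That of Fosl2, chr5:32136222-32136471, lies inside the gene.

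Per length of exon, the members spread over a wide range. Ier3, whose product acts in survival of stressed cells, was at 58.9 ± 4.87 RPKM (SD, n = 10), computed here as unique exon reads divided by exon length and by the library's exon reads with TMM factors, and Jun was at 58.5 ± 5.07. The pair did not differ beyond their spread, with Ier3 above Jun in 5 of 10 libraries. Next came Fosl2 at 45.2 ± 2.31, Junb at 35.4 ± 4.26, Fosl1 at 34.0 ± 3.26 and Jund at 29.0 ± 3.00, on the same scale. Fosl2 was above Junb in all 10 libraries, although their ranges touched. Junb was above Fosl1 in 7 libraries and Fosl1 above Jund in 8, with overlapping ranges.

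Ier2, a nuclear immediate early protein gene, was at 21.1 ± 2.65 RPKM and Egr1 at 13.8 ± 2.69. Both were above the median of all genes tested on exon reads, which was 4.88. Fos and Fosb, the most transient of the family, were the lowest of the 10 at 2.69 ± 0.565 and 1.34 ± 0.180, and each of the 10 libraries had Egr1 above Fos and Fos above Fosb. Of the genes tested on exon reads, 37.5% were below Fos and 26.6% below Fosb, against 88.3% below Jund and 75.1% below Egr1. Jun, Junb, Fosl1 and Fosl2 thus had a level per exon length well above that of Fos and Fosb.

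**Figure D1:**
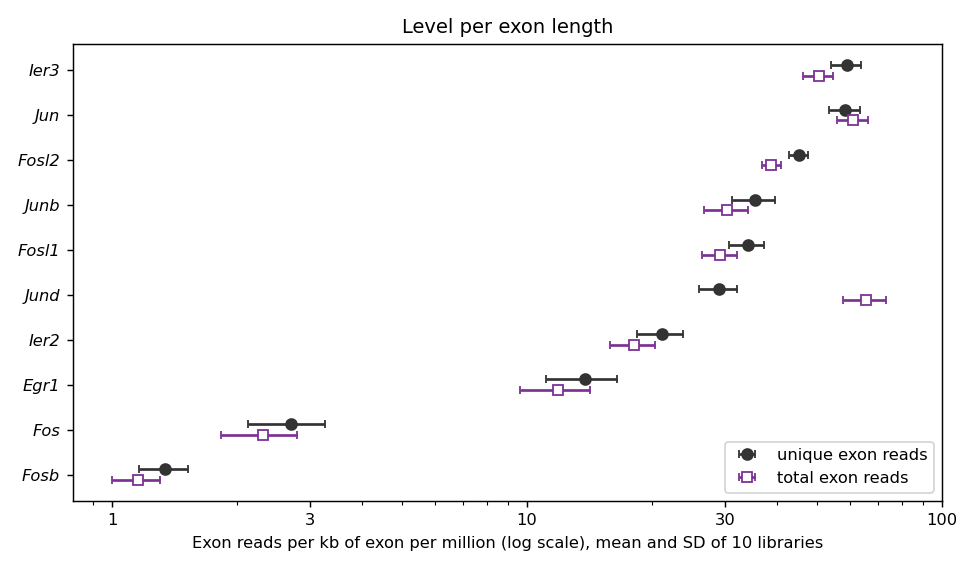
RPKM of exon reads (log axis) for the 10 genes, as mean and SD over 10 libraries, from unique exon reads (filled circles) and total exon reads (open squares). With unique reads Ier3 (58.9) and Jun (58.5) lie at the top and Fosb (1.34) at the bottom, and Jund moves from 29.0 to 65.6 when reads that are not unique are counted.

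The place of Jund in that order depended on which reads were counted. Of its exon reads 62.0% were not unique, as were 17.9% of those of Jun, while each of the other 8 members had fewer than 0.02% such reads. With total exon reads Jund rose from the sixth to the top place, at 65.6 ± 7.81 RPKM, followed by Jun at 61.2 ± 5.22 and Ier3 at 50.5 ± 4.23. Gm11175, an antisense gene that overlaps Jund by 919 bases, had at most 4 reads in any library. Junos overlaps the 5′ end of Jun by 689 bases on the other strand, with 476 to 998 unique reads per library over its whole length, and Prdx2 overlaps the 3′ end of Junb by 351 bases, with 4101 to 5818 unique reads per library against 1744 to 2810 for Junb. Whether the counting used strand was not stated, so reads in these overlaps cannot be told apart. Why the other reads of Jund were not unique, by mapping elsewhere or by an overlap, is not given in the sources used here, so its level carries that uncertainty.

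Introns held few of the reads of most members. Over all genes 26.3% of unique gene reads were counted as intron reads, and the median over tested genes was 23.1%. For Fos the share was 2.71% (95% Wilson interval 2.06 to 3.57, counting error only, 49 of 1806 reads over 10 libraries), for Egr1 0.890% (155 of 17416), for Ier3 1.66% and for Junb 1.00%. Fosb was at 7.85% (120 of 1529 reads) and Fosl2 at 10.6% (10257 of 96394). Fosl1 stood highest at 21.2% (4374 of 20603), close to the median gene.

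The lengths of the introns differ greatly, from 109 bases in Ier3 and 678 in Egr1 to 15201 in Fosl2. Set per kb, exon reads outnumbered intron reads 15.7-fold in Fos, 11.1-fold in Fosb, 14.2-fold in Fosl1, 18.7-fold in Fosl2 and 16.8-fold in Egr1, so these 5 lay close together on that scale. Junb was at 82.9-fold and Ier3, with its very short intron, at 5.71-fold. Spliced reads across exon junctions were found for Fos (233 over the 10 libraries, 8 to 38 in each), Egr1 (471), Fosl1 (2975), Fosl2 (3765), Ier3 (1681) and Fosb (122). Junb had 0 of them although the table lists 3 exons and 1934 intron bases for it, so its intron values rest on an annotation that no spliced read covered. Jun, Jund and Ier2 have 1 exon, yet 38, 208 and 28 of their reads were counted as intron reads, so that category also takes in some reads outside the annotated exon. In a single library the share of Fos rested on 1 to 8 intron reads and could not rank libraries.

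**Figure D2:**
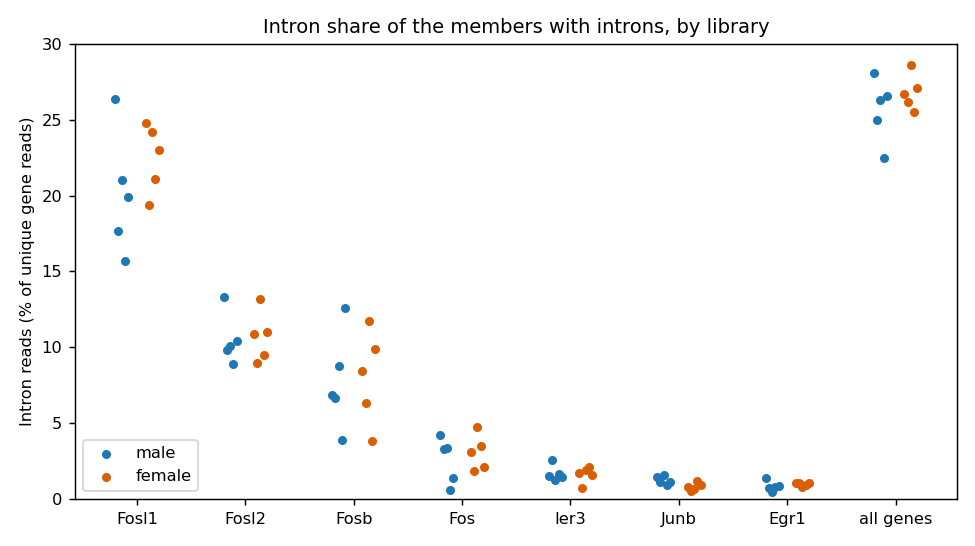
Intron reads as a percent of unique gene reads in each library for the 7 members with annotated introns and for all genes together, males in blue and females in orange, 5 libraries each. Fosl1 lies between 15.7% and 26.4%, near the 22.5% to 28.6% of all genes, whereas Fos, Ier3, Junb and Egr1 lie under 5%.

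None of the 10 members differed between the sexes in edgeR's quasi-likelihood test over 16602 genes at an adjusted p under 0.05, a rule that called 15 genes, or 0.0904% of those tested. DESeq2 and limma-voom called none of the 10 either. At an unadjusted p under 0.05 there was 1 member, Ier2, where 5.55% of all tested genes pass. Ier2 was at 24.2, 29.6, 23.1, 27.9 and 24.5 CPM (gene reads scaled to library size with TMM factors) in female replicates 1 to 5 and at 20.1, 20.6, 23.3, 26.1 and 19.0 CPM in male replicates 1 to 5. The females were mostly higher but the groups overlapped, with male replicates 3 and 4 inside the female range. The means were 25.9 ± 2.73 and 21.8 ± 2.87 CPM (SD, n = 5), a log2 fold change (female minus male) of 0.25 ± 0.09 (SE) with an edgeR adjusted p = 0.757.

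Fos was at 6.18, 5.68, 3.54, 5.62 and 3.72 CPM in female replicates 1 to 5 and at 3.39, 3.84, 5.67, 5.07 and 5.47 CPM in males 1 to 5. Low and high libraries occurred in both sexes, and the log2 fold change was 0.08 ± 0.19 (SE, edgeR adjusted p = 0.999). Egr1, whose protein activates growth and matrix genes, was at 45.0, 59.4, 43.8, 53.8 and 37.6 CPM in females and at 35.7, 35.1, 54.1, 61.5 and 37.9 CPM in males. Male replicates 3 and 4 and female replicates 2 and 4 stood above the other 6, and the log2 fold change was 0.10 ± 0.19 (SE, edgeR adjusted p = 0.999).

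Jun, the main partner of the Fos proteins, was at 124, 144, 142, 145 and 143 CPM in females and at 114, 130, 149, 162 and 126 CPM in males. Junb, which often acts against Jun in growth control, was at 54.0, 60.0, 59.1, 65.8 and 59.1 CPM in females and at 49.6, 60.5, 68.1, 80.2 and 52.2 CPM in males. Male replicate 4 was the highest and male replicate 1 the lowest of the 10 libraries for both genes. For Jun, Junb and Jund the log2 fold changes were 0.03 ± 0.09, -0.06 ± 0.11 and 0.01 ± 0.10 (SE). Female replicate 2 was the highest library for Jund, at 45.6 CPM, and for Fosb, at 4.88 CPM, and female replicate 3 the lowest for both, at 29.5 and 3.43 CPM.

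Fosl2 was the steadiest, at 239 to 257 CPM in females and 247 to 281 CPM in males, with a log2 fold change of -0.09 ± 0.05 (SE, edgeR adjusted p = 0.961). Fosl1 was at up to 62.8 CPM in females and 46.4 to 58.1 CPM in males, and Ier3 at 46.2 to 50.3 and 41.9 to 58.6 CPM. Their log2 fold changes were -0.02 ± 0.08 and -0.12 ± 0.08, and that of Fosb was 0.09 ± 0.13 (SE). Run on simulated data of these library sizes, the test found 38% of 1.25-fold changes, 80% of 1.5-fold and 94% of 2-fold ones, so small differences between the sexes could have gone uncalled. The simulation changed 200 genes, while the data gave 15 calls. With more changed genes the adjusted p is less strict, so these shares may be too high for the real data.

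**Figure D3:**
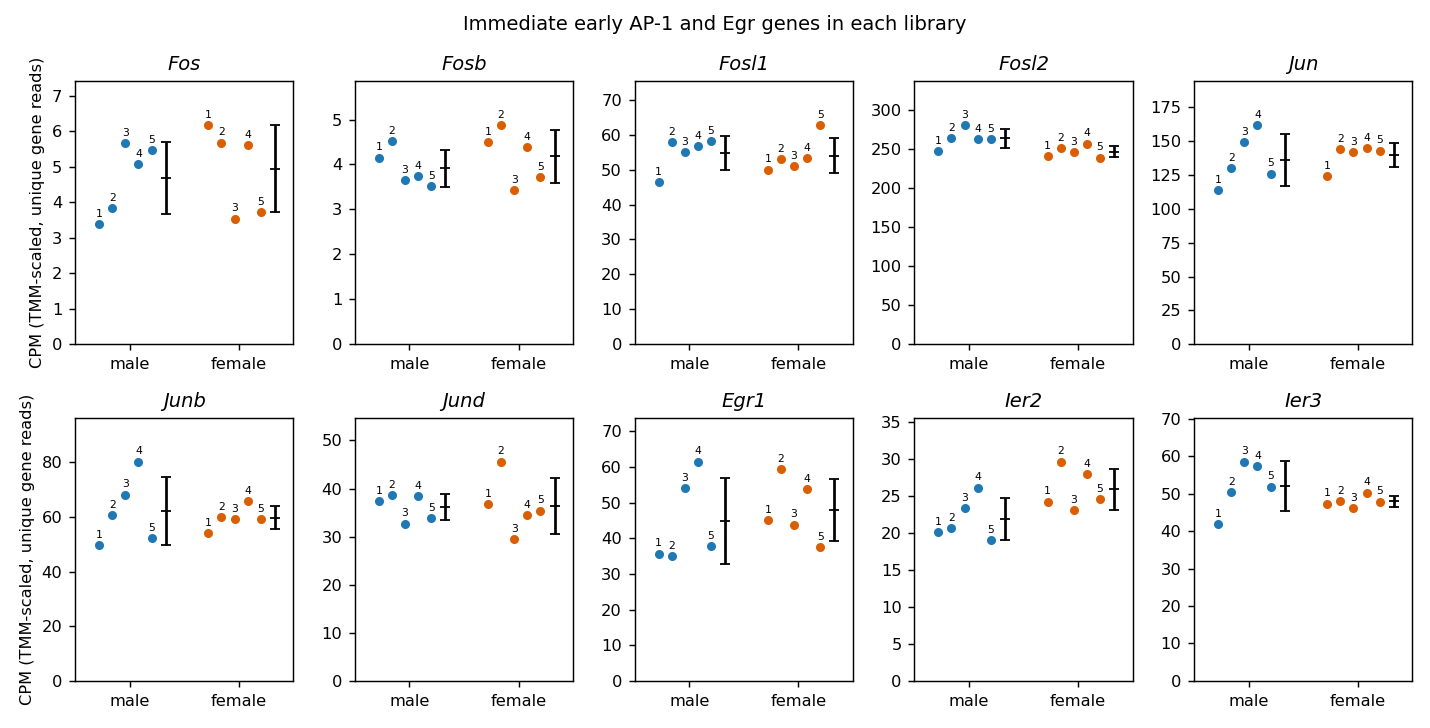
CPM in each library for the 10 genes, 5 males (blue) and 5 females (orange), numbered by replicate, with the mean and SD in black; each axis starts at 0. The sexes overlap for each gene, and Egr1 shows male replicates 3 and 4 and female replicates 2 and 4 above the rest.

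Exon and intron reads were then tested apart. With unique exon reads no member was among the 16 calls (0.118% of 13615 tested genes). Ier2 and no other member had an unadjusted p under 0.05, where 7.43% of genes do, at a log2 fold change of 0.26 ± 0.08 (SE, edgeR adjusted p = 0.396). With unique intron reads 7 members were tested: Fosb, Fosl1, Fosl2, Junb, Jund, Egr1 and Ier3. Jund was among them although it is annotated with 1 exon, and Fos was not. None of the 7 was among the 14 calls (0.0983% of 14249 tested genes). Junb was the 1 member with an unadjusted p under 0.05 there, where 4.37% of genes are, at a log2 fold change of -0.64 ± 0.29 (SE, edgeR adjusted p = 1.000) from 12 to 33 intron reads per library. For Fosl1 the intron log2 fold change was 0.13 ± 0.09 and the exon one -0.06 ± 0.08, and for Fosl2 they were -0.10 ± 0.07 and -0.09 ± 0.04 (SE).

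Fos and Egr1 varied most between libraries of a sex. The SD of log2 CPM about the sex means was 0.35 for Fos and 0.32 for Egr1, against a median of 0.18 over all tested genes, and 76.4% and 72.9% of tested genes had a smaller one. In edgeR's dispersion estimates the biological coefficient of variation of Egr1 was 20.5%, or 2.04 times the trend for genes of its abundance (10.0%). For Fos it was 20.2%, 1.24 times the trend, and for Junb 13.1%, 1.34 times. Fosl2 lay at the other end with an SD of 0.06, smaller than all but 2.77% of tested genes. Jun, Ier2, Ier3, Fosl1, Fosb and Jund lay between 0.13 and 0.18. The highest library exceeded the lowest 1.83-fold for Fos, 1.75-fold for Egr1 and 1.62-fold for Junb, but 1.17-fold for Fosl2.

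Across the 10 libraries several members rose and fell together. Of the 45 pairs, 34 (75.6%) had a Pearson r of log2 CPM above 0, and 10 (22.2%) had an r of at least 0.6. Over all pairs of tested genes these shares were 49.9% and 5.62%. With unique exon reads 7 member pairs had an r of at least 0.6, and without TMM factors 8, with no share over all pairs given for these settings. Pairs among other genes with few intron reads were not set beside the members. The median r was 0.33 for the members and 0.00 for all pairs, and with the sex means removed it was 0.47 and 0.00. All points share the same 10 libraries, so the pairs are not independent of each other.

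Jun and Junb were the tightest pair, with r = 0.92 (permutation p = 1.70e-04, adjusted over the 45 pairs 0.00765) and Spearman's rho = 0.90 (permutation p = 8.10e-04, adjusted 0.0364). Without male replicate 1 and female replicate 1, the libraries farthest from the median of Jun, r was 0.89. No other pair had an adjusted p under 0.05 with all 10 libraries. Egr1 and Ier2 had r = 0.81 (permutation p = 0.00588, adjusted 0.0661) and rho = 0.71 (permutation p = 0.0269, adjusted 0.242), with r = 0.72 without male replicate 4 and female replicate 2. Fosl2 and Ier3 had r = 0.81 (permutation p = 0.00434, adjusted 0.0661) and rho = 0.84 (permutation p = 0.00392, adjusted 0.0588), with r = 0.77 without male replicate 3 and female replicate 5. Fosb and Jund had r = 0.77 (permutation p = 0.00513, adjusted 0.0661) and rho = 0.84 (permutation p = 0.00377, adjusted 0.0588), but r = 0.51 without female replicates 2 and 3. Calls for 3 pairs depended on the setting. With 1 library left out, the adjusted permutation p of Fosb and Jund ran from 0.0335 (without male replicate 4) to 0.237 (without female replicate 2), and was 0.0477 without female replicate 4. For Fosl2 and Ier3 the adjusted permutation p ran from 0.0286 (without male replicate 1) to 0.170 (without male replicate 3), and for Junb and Ier3 from 0.0436 (without male replicate 5) to 0.284 (without male replicate 4). With unique exon reads the adjusted permutation p of these pairs was 0.221, 0.268 and 0.300, without TMM factors 0.170 for each, and with total gene reads 0.0468, 0.0654 and 0.0790.

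The members did not form a single block. Jun, Junb, Egr1 and Ier2 had r between 0.56 and 0.92 with each other, and Ier3 had r of 0.69 and 0.77 with Jun and Junb. Fosb and Jund had r of -0.22 to 0.04 with Jun and Junb. Fos and Egr1, both classical serum response genes, had r = 0.64 (permutation p = 0.0521, adjusted 0.234) and rho = 0.61 (permutation p = 0.0664, adjusted 0.249), and r = 0.61 without male replicate 1 and female replicate 3. Fos and Fosb, which are commonly induced together, had r = 0.26 (permutation p = 0.458, adjusted 0.735) and rho = 0.41 (permutation p = 0.248, adjusted 0.621), and r = 0.14 without the same libraries. Fosb had 114 to 190 unique reads and Fos 119 to 228 in each library.

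**Figure D4:**
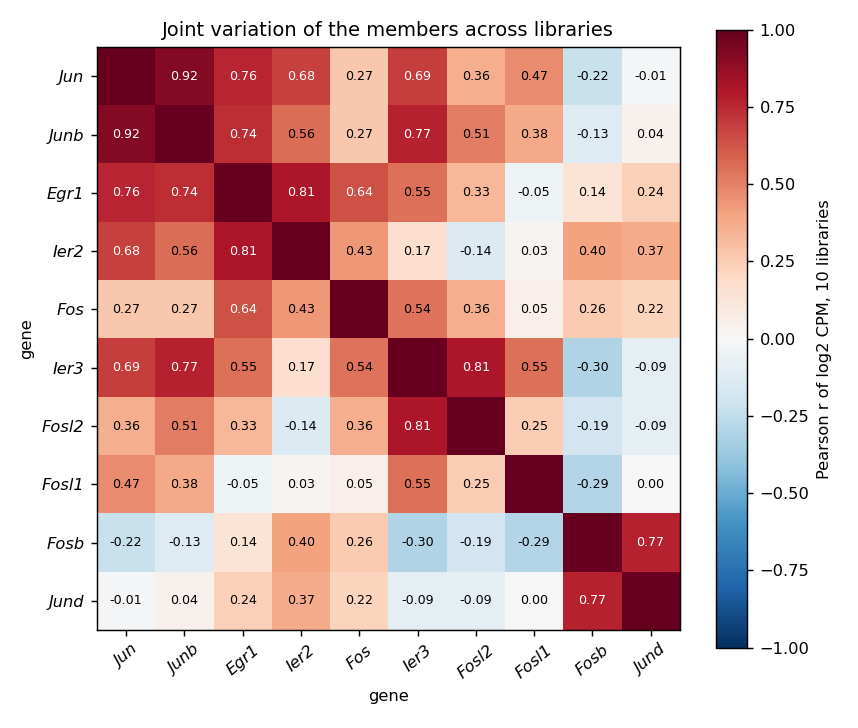
Pearson r of log2 CPM over 10 libraries for each pair of the 10 genes, from -1 (blue) to 1 (red). Jun, Junb, Egr1 and Ier2 form a positive corner with Jun and Junb at 0.92, and Fosb and Jund stand apart with each other at 0.77.

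The libraries could be ordered by how many members lay above the mean of their sex. These were 9 of 10 in female replicate 2, 8 each in female replicate 4 and male replicates 3 and 4, 4 in male replicate 2, 3 each in male replicate 5 and female replicate 1, 2 each in male replicate 1 and female replicate 5, and 1 in female replicate 3. The mean standardised deviation over the 10 members ran from -1.06 in male replicate 1 to 0.87 in male replicate 4. The share of intron reads over all genes moved with it: male replicate 4 had the lowest share at 22.5%, while female replicate 3 and male replicate 1 had the highest at 28.6% and 28.1%. With sex means removed, the mean of the members and that share had r = -0.83 over the 10 libraries, given as a description. The CPM is scaled to gene reads that include the intron reads, so for genes with few intron reads it is not independent of that share. How much of this r comes from the scaling was not tested.

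Other genes with few intron reads showed that relation too. Of the 2539 tested genes with an intron share under 5%, 87.8% also went down where the library's intron share went up, with a median r of -0.46, and the 10 members had a median of -0.55. The median r with the mean of the members was 0.41 for those 2539 genes and -0.25 for the 4662 genes with an intron share of at least 50%. When the intron share of the library was removed together with the sex means, the median r over the 45 pairs was 0.19 in place of 0.47, and with unique exon reads in place of gene reads it was 0.15 in place of 0.33. Jun and Junb held at r = 0.93 and 0.88 in these settings. CPM without TMM factors gave a median r of 0.17.

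**Figure D5:**
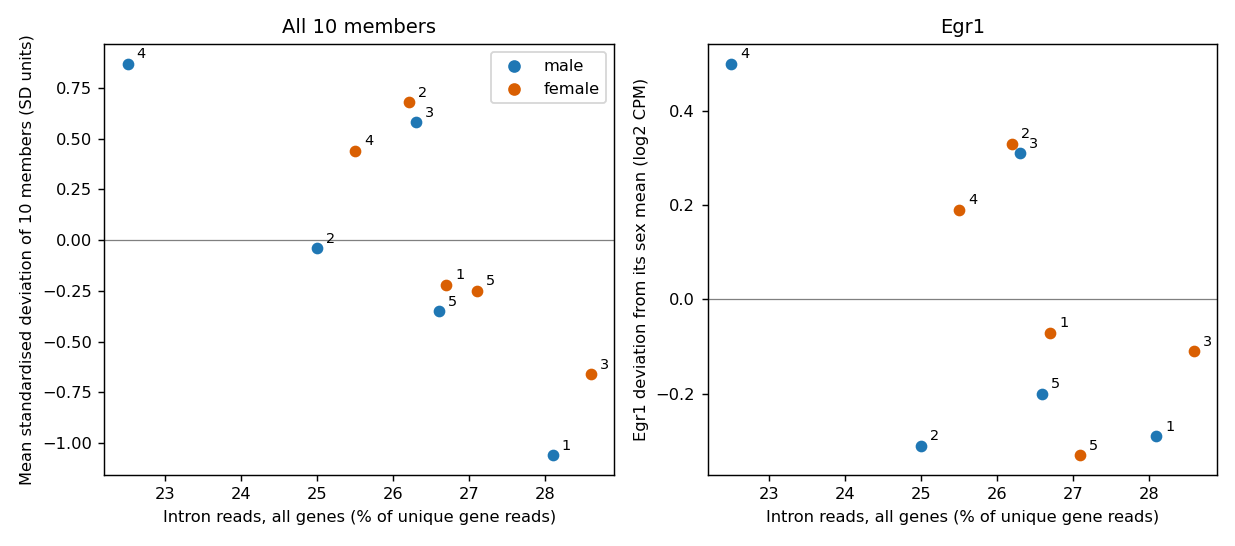
Mean standardised deviation of the 10 members from their sex means (left) and the deviation of Egr1 in log2 CPM (right) against the percent of unique gene reads counted as intron reads in the library, males in blue and females in orange, numbered by replicate. Male replicate 4 (22.5% intron reads) is the highest and male replicate 1 (28.1%) the lowest on the left, whereas Egr1 is low in male replicate 2 despite its 25.0%.

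Depth, the share on Gm26917 and the mitochondrial share moved less closely with the mean of the members. The r with the mean of the members, with sex means removed, was -0.34 for unique gene reads (30662616 to 45859721 per library), 0.07 for the share of reads on Gm26917, an abundant gene (7.55% to 10.1%), and 0.39 for the mitochondrial share (3.40% to 4.54%). Fos and Fosl2 had r of 0.74 and 0.78 with the mitochondrial share, and Jund 0.68 with Gm26917. The summed level of 10 heat shock genes ran from 1053 CPM in male replicate 1 to 1268 CPM in male replicate 4, the libraries that were lowest and highest for the members. Its r with the mean of the members was 0.79, close in size to the -0.83 of the intron share. Of the 10 heat shock genes 9 had a positive r, where 8811 of 16602 tested genes do. Their median r was 0.63, against 0.41 for the 2539 genes with few intron reads. Dnajb1 was at 0.86, Hsph1 at 0.81 and Hspa8 at 0.78, but Hspb1 was at 0.31, Hsp90aa1 at 0.30 and Dnaja1 at 0.28. Of the stress-inducible pair, which are near-identical copies, Hspa1b (12.5 CPM) was at 0.68 and Hspa1a (1.06 CPM) at -0.17. The part of these measures, or of handling at harvest, in the joint variation was not tested.

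The r of other genes with the mean of the members was taken with sex means removed, over 10413 genes with at least 5 CPM. The most similar included Sptan1, Gas2l1, Flii, Stt3b, Hsd17b10, Lrrc42 and Ficd, with r of 0.95 or 0.96 over the 10 libraries. The most opposite included Siah1a, Lrp12 and Elf1, with r of -0.97 to -0.95. None of these 10 is on the lists of early response genes. Closest to Fos alone were Alg10b (r = 0.98), Tmem9b, Rab14, Slc39a13 and Glod4 (0.94 to 0.96), none of which is on those lists. Alg10b ran from 57.2 to 66.9 CPM while Fos ran from 3.39 to 6.18, so its range was much narrower. All genes named here are the extremes of the 10413 searched, and with 10 libraries such a search alone yields high r. How high it would reach was not tested, so these values do not show a shared regulation.

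The other genes of the early response showed no call between the sexes, against the 0.0904% of all genes. Among 12 tested AP-1 dimer partners, of which Mafg, Jdp2 and Atf2 had the most reads (80.2, 65.1 and 64.7 CPM), 0 were called, 7 had a positive and 5 a negative log2 fold change, and the median was 0.02, with 0.00 over all tested genes. For Maf the log2 fold change was -0.41 ± 0.11 (SE, edgeR adjusted p = 0.504). Of the Egr family with its Nab repressors 4 were tested, with Nab2 and Nab1 at 75.8 and 67.7 CPM and Egr2 at 4.15. Egr2, an induced relative of Egr1, had a log2 fold change of 0.39 ± 0.16 (SE, edgeR adjusted p = 0.809).

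The 17 genes that carry the signal, with Mkl1 and Egfr among those with the most reads (188 and 181 CPM), had a median log2 fold change of -0.01. Of them 0 had an unadjusted p under 0.05, where 5.55% of all tested genes do. The 15 other early transcription factors had a median of 0.01, with Klf6, Klf4 and Ier5 at 279, 118 and 84.2 CPM, and Ier5 had a log2 fold change of 0.16 ± 0.06 (SE, edgeR adjusted p = 0.757). The 24 tested feedback inhibitors had a median of -0.02, with Zfp36l2, Dusp4 and Errfi1 at 173, 164 and 121 CPM. Across libraries, 19 of 24 feedback inhibitors, 14 of 15 other transcription factors and 15 of 15 secreted factors had a positive r with the mean of the members, where 8811 of 16602 genes do. Their median r was 0.31, 0.25 and 0.36, below the 0.41 of the 2539 genes with few intron reads. Dusp6, a MAP kinase phosphatase, and Myc had r of 0.81 and 0.78, and Dusp1, of the same family as Dusp6, 0.38.

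Early response genes for secreted proteins and enzymes had a negative log2 fold change (female minus male) in 14 of 15, where 7952 of 16602 tested genes do, and none was called. The median was -0.13. Thbs1 and Ctgf were among those with the most reads, at 13146 and 1014 CPM. Ereg, an EGF receptor ligand, was the gene with an unadjusted p under 0.05, where 5.55% of all tested genes pass (log2 fold change -0.44 ± 0.17 (SE), edgeR adjusted p = 0.811). Of 12 tested AP-1 target genes 8 were negative, with a median of -0.14 and 0 called, and Cd44, Spp1 and Hmox1 had the most reads at 1595, 689 and 219 CPM. Of these 12, 2 had an unadjusted p under 0.05, against the same 5.55% of all tested genes. They were Hmox1, which breaks down heme (log2 fold change -0.33 ± 0.13 (SE), edgeR adjusted p = 0.816), and Ccnd1 (-0.16 ± 0.07 (SE), edgeR adjusted p = 0.850). Targets did not follow the members as a group, with 6 of 12 at a positive r and a median r of -0.02. Ccnd1, the cyclin of cell cycle entry, had r of 0.86, and the collagenase and stromelysin genes Mmp13, Mmp3 and Mmp10 had 0.24, -0.15 and -0.26.

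The labelled cell type carried its markers: the 10 fibroblast markers were all tested and summed to 23909 to 31833 CPM in females and 24163 to 30498 CPM in males. Of 6 macrophage markers 6 were tested, summing to 37.4 to 92.9 CPM in females and 45.1 to 69.0 CPM in males. The sums were 20.8 to 33.8 and 24.8 to 47.1 CPM for 5 endothelial markers, 60.8 to 87.7 and 59.0 to 113 CPM for 4 epithelial ones, 71.6 to 120 and 68.3 to 104 CPM for 2 muscle ones, 106 to 171 and 108 to 168 CPM for 4 neural ones, and 3.05 to 7.58 and 2.45 to 5.93 CPM for 1 blood one. A single gene made up most of several sums: Des had a mean of 89.5 CPM against 0.373 for Pax7 among the muscle markers, Nes 125 against 0.682 to 6.55 for the other neural ones, Krt19 70.5 against 0.355 to 8.93 for the other epithelial ones, and Kdr 25.1 against 0.662 to 2.67 for the other endothelial ones. A positive r with the mean of the members was found for 8 of 10 fibroblast, 1 of 6 macrophage and 3 of 5 endothelial markers. It was found for 1 of 4 epithelial, 1 of 2 muscle, 4 of 4 neural and 1 of 1 blood markers, and for 8811 of 16602 tested genes. Hba-a1 had 0 reads, and Myod1, Myog, Myf5 and Sox2 had 4 to 15 reads over all 10 libraries. Fewer cells that express a gene and less RNA per cell cannot be told apart in such bulk samples, and the part of other cells in these results was not tested.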

How the data were processed

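RNA was measured in 5 male and 5 female MEF libraries from ribosomal RNA-depleted total RNA with a strand-marking kit, per the labels' protocols. The authors deposited read counts per gene in whole numbers, not normalized, per the file headers: unique and total gene, exon and intron reads and unique exon-exon reads. Per the submitters' processing notes the genome build is mm10. For the aligner and the counting rules, the sources used here give nothing. Another 80 columns with library values stayed out. Starts were converted to count from 1.

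Unique gene reads were fitted with edgeR 4.0.16 in R 4.3.3: filterByExpr with a minimum count of 10 (16602 genes), TMM factors, sex as the only term of a robust quasi-likelihood fit, two-sided, Benjamini-Hochberg over all tested genes, called under 0.05. Exon and intron reads were fitted the same way. A standard error is the log2 fold change over the square root of F. Correlations used log2 CPM with a prior count of 0.5 and 100000 permutations (scipy 1.17.1, numpy). DESeq2 1.42.0 and limma-voom (limma 3.58.1) were alternatives. The fit was tested on simulated data: of 16364 genes, 200 were changed, while 3.11% of the calls it made were of genes left as they were. The depth was 30662616 to 45859721 unique gene reads per library.

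The members and gene lists were chosen with earlier results of these data known. Named genes are the members, each list's called genes and its 3 with the highest CPM, and the genes most like the members; other names were chosen after their values were seen. Some genes that the rule names are not reported here. Libraries of a sex differed by 11.4 or more in chi-square per degree of freedom, so none was taken for a copy.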

Additional observations from a re-analysis of the deposited data

Results flagged for a closer look

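For the 10 members, CPM and intron share were examined in each sex for a library far from the other 4 (40 groups of 5, by Dixon's test at the 95% level), and chance flags about 1 in 20 groups. In the males, Fosl1 was at 46.4 CPM in replicate 1 against 54.9 to 58.1 in the others. In the females, Fosl1 was at 62.8 CPM in replicate 5 against at most 53.3 in the others, and Jun was at 124 CPM in replicate 1 against 142 to 145. No intron share was flagged.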

How the results depend on the processing

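No member was called in any of the 18 alternative fits of unique gene reads, total gene reads included. The 15 calls over all genes became 30 with no filter and 72 with DESeq2, and 12 to 36 when 1 library was left out, the highest without male replicate 1. Whether the replicate numbers pair the libraries was not settled. Same-numbered male and female libraries deviated together with positive correlations of 0.15, 0.18, 0.24, 0.06 and 0.39. Of the 5 males, 4 were closest to the female of their own number. The main fit and the permutations took the libraries as unpaired. With the replicate number as a block the calls were 43 for gene reads, 51 for intron reads and 79 for exon reads. Without it they were 15, 14 and 16. With the block no member was among the calls of the gene reads, and the log2 fold change of Jund was 0.00. That of Jund was also 0.00 with upper quartile factors and -0.01 with limma-voom. Leaving out a library gave log2 fold changes of -0.02 to 0.18 for Fos, -0.08 to 0.00 for Fosl1, -0.02 to 0.11 for Jun, -0.13 to 0.05 for Junb and -0.09 to 0.07 for Jund, so the direction of these 5 was not settled, and 0.19 to 0.32 for Ier2.

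The median r over pairs moved from 0.33 to 0.47 with sex means removed, 0.17 without TMM factors, 0.15 with unique exon reads and 0.19 with sex means and the intron share removed, and it was 0.26 to 0.39 when a library was left out. The cause was not tested. Removing the intron share, and counting total gene reads for the pairs, were chosen after the data were seen. Jun and Junb had r of 0.90 to 0.94 when a library was left out. The SD of log2 CPM of Ier3 was 0.08 to 0.15, lowest without male replicate 1. With total exon reads the RPKM was 1.15 for Fosb, 29.2 for Fosl1, 38.8 for Fosl2, 30.4 for Junb, 18.1 for Ier2 and 50.5 for Ier3, all lower than with unique reads. Of the exon reads of each of these genes, at most 0.00441% were not unique. Their values were lower because the total of exon reads used as the divisor was larger. For Jund the RPKM was 65.6, which was higher. The intron share of Jund was 0.810% with total reads. Low read numbers limit Fos and Fosb most.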
